A study of Mus musculus with 2 samples.

Results

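Gjb2, Gjb6 and Gja1 encode the connexins best known from the supporting cells of the inner ear, and their counts were followed in 2 libraries of single cells from the sensory epithelium of the mouse utricle. The genes were chosen by name from the 31053 genes counted in each library, where each of the 3 names matched 1 row. The cells came from wild-type mice, labelled WT, on a C57BL/6J background by the study's methods, without treatment, either as embryos of day 14 (E14) or as pups on day 2 after birth (P2). The number of animals behind each library is not given in the sources used here. At each age the epithelium was freed with thermolysin, dissociated and captured as 1 library of droplet-based 3′ scRNA-seq. With 1 library per age no replicate error exists, so age, animals and library cannot be told apart and no test between the ages was possible. Ranges in brackets are exact 95% intervals, and they cover counting error only.

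Connexin subunits assemble into a half-channel in the cell membrane, and half-channels of neighbouring cells dock to form a gap junction through which ions and small metabolites pass. In the inner ear the supporting cells and the connective tissue around them are coupled by such junctions, while hair cells are not, and this coupling has long been linked to the removal of potassium from the surroundings of hair cells. Gjb2 encodes Cx26 and Gjb6 encodes Cx30, which join in mixed channels and whose loss is a cause of inherited deafness in humans. Gja1 encodes Cx43, a connexin of connective tissue, glia, heart and many embryonic tissues.

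Gjb2 and Gjb6 are neighbours. In the GENCODE M21 annotation (GRCm38), Gjb2 (ENSMUSG00000046352) lies at chr14:57098600-57104702 and Gjb6 (ENSMUSG00000040055) at chr14:57123303-57133611, both on the minus strand and 18600 bases apart, with 1 annotated gene, Gm4491, between them. Gja1 (ENSMUSG00000050953) lies at chr10:56377330-56402513 on the plus strand. No other annotated gene overlapped any of the 3, so reads of an overlapping gene do not enter their counts. The 250 bases before the RefSeq start of each gene (GRCm38.p6) are shown because Gjb2 and Gjb6 were found in the same clusters but differed in their change with age. They cover chr14:57104703-57104952, chr14:57133612-57133861 and chr10:56377050-56377299, and each is written 5′ to 3′ on the strand of its gene, with matches to the motifs searched in capitals.
Gjb2: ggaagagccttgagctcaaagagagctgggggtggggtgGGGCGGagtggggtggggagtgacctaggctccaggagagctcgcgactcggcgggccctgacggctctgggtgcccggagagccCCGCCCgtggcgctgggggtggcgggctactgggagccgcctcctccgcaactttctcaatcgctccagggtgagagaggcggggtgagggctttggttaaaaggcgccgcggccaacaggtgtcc
Gjb6: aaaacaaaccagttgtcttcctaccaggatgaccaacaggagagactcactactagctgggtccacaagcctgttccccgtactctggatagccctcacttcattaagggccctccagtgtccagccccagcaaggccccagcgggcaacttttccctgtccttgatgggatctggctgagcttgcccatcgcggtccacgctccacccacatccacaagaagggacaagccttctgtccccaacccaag
Gja1: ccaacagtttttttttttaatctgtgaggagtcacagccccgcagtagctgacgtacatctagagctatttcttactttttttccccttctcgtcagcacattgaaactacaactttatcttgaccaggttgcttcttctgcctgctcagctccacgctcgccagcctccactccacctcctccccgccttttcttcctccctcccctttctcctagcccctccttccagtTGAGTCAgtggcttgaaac
The motifs were the GC box GGGCGG, the TATA box TATAAA and the AP-1 motif TGANTCA, each on both strands. The window of Gjb2 was GC-rich, with 69.2% G or C and 18 CpG against a median of 52.4% and 6 over 32851 promoter windows of the same length, and held 2 GC boxes that begin 211 and 126 bases before the start. The window of Gjb6 had 56.8% G or C and 5 CpG and held none of these motifs. The window of Gja1 had 50.0% G or C and 6 CpG and held 1 AP-1 motif, which begins 19 bases before the start. A GC box was found in 32.7% of all windows, a TATA box in 12.4% and an AP-1 motif in 6.75%, and a match is a description of letters, not of a bound factor.

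After filters on genes, UMIs (molecular barcodes that tag single captured transcripts) and mitochondrial share, and after removal of likely doublets, 10138 cells were left at E14 and 3877 at P2, with medians of 6654 and 9796 UMIs. The libraries held 122892080 and 57003553 UMIs in all, and 23 barcodes occurred in both, 10 of them among the kept cells. Clusters were named from marker genes that include none of the 3 connexins, and 37.2% of the cells at E14 and 50.0% at P2 stayed in unnamed clusters. Supporting cell-like cells numbered 776 at E14 and 802 at P2. Their 12 markers summed to 4250.1 CPM (UMIs of a gene per 1000000 UMIs) at E14 and 7208 CPM at P2. All 12 were detected, which does not set the class apart, as they also were in the hair, nonsensory epithelial and mesenchymal classes. Their sums there were lower, at 564, 238 and 42.0 CPM at E14 and 809, 1869.9 and 799 CPM at P2. Within the supporting class, nonsensory epithelial markers summed to 2624 CPM at E14 and 1565 CPM at P2. Hair cell markers summed to 354 and 748 CPM, red blood cell markers to 4307 and 5.85 CPM. Chondrocyte markers summed to 1122 and 1454 CPM, and the 13 mesenchymal markers to 665 and 14.0 CPM. The part of such transcripts in the values below was not tested. Levels are CPM of UMIs summed over the cells of a class, and as each transcript gives 1 tag near its 3′ end, genes were compared without correction for length.

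In supporting cell-like cells Gjb2 was high at both ages, Gjb6 was low at E14 and close to Gjb2 at P2, and Gja1 went the other way. Gjb2 stood at 119.8 CPM (113 to 126) in the E14 library and was at 143 CPM (137 to 149) in the P2 library, 1.20 times the E14 level (1.12 to 1.28). Gjb6 stood at 22.2 CPM (19.5 to 25.2) in the E14 library and was at 127 CPM (121 to 133) in the P2 library, 5.71 times the E14 level (5.00 to 6.55). Gja1 went from 11.9 CPM (9.99 to 14.2) in the E14 library to 2.52 CPM (1.77 to 3.47) in the P2 library, 0.211 times the E14 level (0.142 to 0.306). The mixture of connexin transcripts differed between the libraries. For each Gjb2 UMI there were 0.186 Gjb6 UMIs (0.161 to 0.213) at E14 and 0.887 (0.833 to 0.944) at P2. For each Gjb2 UMI there were 0.0996 Gja1 UMIs (0.0827 to 0.119) at E14 and 0.0176 (0.0123 to 0.0243) at P2. The small difference of Gjb2 depended on which clusters were counted. When the E14 cluster with Zpld1 and Msx1 as leading genes was left out (Zpld1 is typical of the cristae of the semicircular canals), Gjb2 stood at 147 CPM (138 to 155) at E14 and the log2 ratio was -0.03 (-0.14 to 0.07) in place of 0.26, while those of Gjb6 and Gja1 were 2.66 and -2.57 in place of 2.51 and -2.25.

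**Figure D1:**
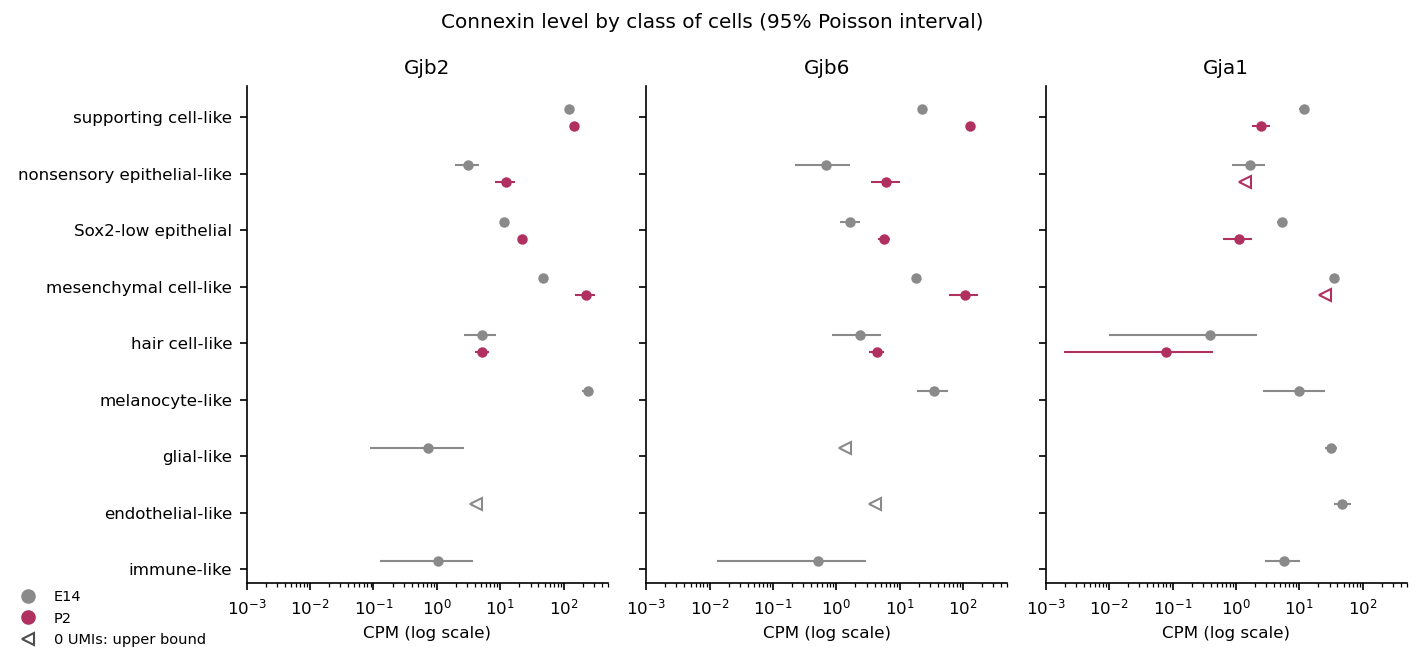
Level of each connexin (CPM, log axis) in the named classes of cells and in the Sox2-low epithelial set at E14 (grey) and P2 (red). Pericyte-like and red blood cell-like cells are not drawn. Points are sums over all cells of a class, bars are exact 95% Poisson intervals, and open triangles mark the upper bound of a class with 0 UMIs. In supporting cell-like cells Gjb6 lies at 22.2 CPM at E14 and 127 CPM at P2, and Gja1 at 11.9 and 2.52 CPM.

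Hair cells, which are not coupled by gap junctions, served for comparison, and whether their counts come from free RNA was not tested. In hair cell-like cells (196 at E14 and 932 at P2) Gjb2 reached 5.07 CPM (2.70 to 8.68) in the E14 library and 5.20 CPM (4.03 to 6.60) in the P2 library. Gjb6 reached 2.34 CPM (0.860 to 5.10) and 4.34 CPM (3.28 to 5.64) in the same cells, and Gja1 had 1 UMI at each age. At P2 these levels were 3.63% (Gjb2), 3.42% (Gjb6) and 3.08% (Gja1) of those in supporting cell-like cells. Otol1 and Tectb, which encode proteins of the otoconia and of the gel above supporting cells, stood at 3.92% and 4.65% of their supporting cell level in the same hair cell-like cells. At E14 the shares were less alike, with 4.24% for Gjb2, 10.5% for Gjb6, 3.27% for Gja1, 7.06% for Otol1 and 1.09% for Tectb. The ratio of Gjb6 to Gjb2 UMIs was 0.836 (0.575 to 1.21) in P2 hair cell-like cells, against 0.887 in supporting cell-like cells. Barcodes that failed the filters, with medians of 736 UMIs at E14 and 902 at P2, held Gjb2 at 13.2 and 41.8 CPM and Gjb6 at 2.69 and 48.8 CPM. The highest hair cell-like cluster was P2 cluster 21 (55 cells), with 29.7 CPM of Gjb2 and 13.6 CPM of Gjb6, in which 2 supporting cell markers passed beside 4 of hair cells.

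Supporting cell-like cells were not uniform. At E14 Gjb2 was highest in cluster 6, led by Tectb and Otol1, at 165 CPM (155 to 175, 417 cells), and lowest in cluster 19, led by Zpld1 and Msx1, at 51.4 CPM (43.7 to 60.0, 168 cells). Clusters 21 and 30 stood at 69.1 CPM (54.3 to 86.8) and 64.7 CPM (43.3 to 92.9), and the intervals of clusters 19, 21 and 30 overlap one another. Cluster 21 (143 cells) was led by mitotic genes at a median of 2760 UMIs. Cluster 30 (48 cells) was led by Nts and Jag1 and held Col1a2, a collagen of mesenchyme, at 330.2 CPM. Zpld1 was also among its leading genes, at 1327 CPM against 4669 CPM in cluster 19, and it was not left out with cluster 19 above. Gjb6 followed another order at E14, with 27.6 CPM (22.1 to 34.1) in cluster 19, 24.5 CPM (12.2 to 43.9) in cluster 30, 21.9 CPM (18.5 to 25.9) in cluster 6 and 7.47 CPM (3.23 to 14.7) in cluster 21. The first 3 of these intervals overlap. The Gjb6 to Gjb2 ratio was thus 0.537 (0.409 to 0.703) in cluster 19 and 0.133 (0.111 to 0.158) in cluster 6. Gja1 was lowest in cluster 19, at 4.17 CPM (2.22 to 7.14), and stood between 14.5 and 17.8 CPM in the other clusters.

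At P2 the range of Gjb6 was wider than that of Gjb2. Gjb6 was highest in cluster 1, at 196 CPM (185 to 208, 296 cells), a cluster that Gjb6, Fgf3 and Lgr5 led although none of the listed connexins was used for clustering. It stood at 145 CPM (129.7 to 162) in cluster 13, led by Fndc7 and Fibin, at 77.8 CPM (68.2 to 88.4) in cluster 9, led by Il33 and Dlk1, and at 68.8 CPM (59.1 to 79.6) in cluster 8, led by Tectb, Igfbp3 and Isl1. The intervals of clusters 9 and 8 overlap. In cluster 20 (58 cells), led by 1500015O10Rik and Ptpn5, Gjb6 was at 10.5 CPM (5.41 to 18.3), while Gjb2 was at 111 CPM (92.4 to 132). Gjb2 stood at 182 CPM (165 to 201) in cluster 13, 178 CPM (164 to 194) in cluster 9, 138 CPM (128 to 148) in cluster 1 and 96.3 CPM (84.8 to 109) in cluster 8. Cluster 1 was the only supporting cell-like cluster with more UMIs of Gjb6 than of Gjb2, at a ratio of 1.42 (1.30 to 1.56), and cluster 20 had the lowest ratio of the P2 clusters, 0.0945 (0.0476 to 0.171). Gja1 stood between 0.873 and 2.27 CPM in clusters 1, 9, 13 and 20, and at 6.50 CPM (3.78 to 10.4) in the Tectb-led cluster 8, which held 17 of the 37 UMIs of the class.

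**Figure D2:**
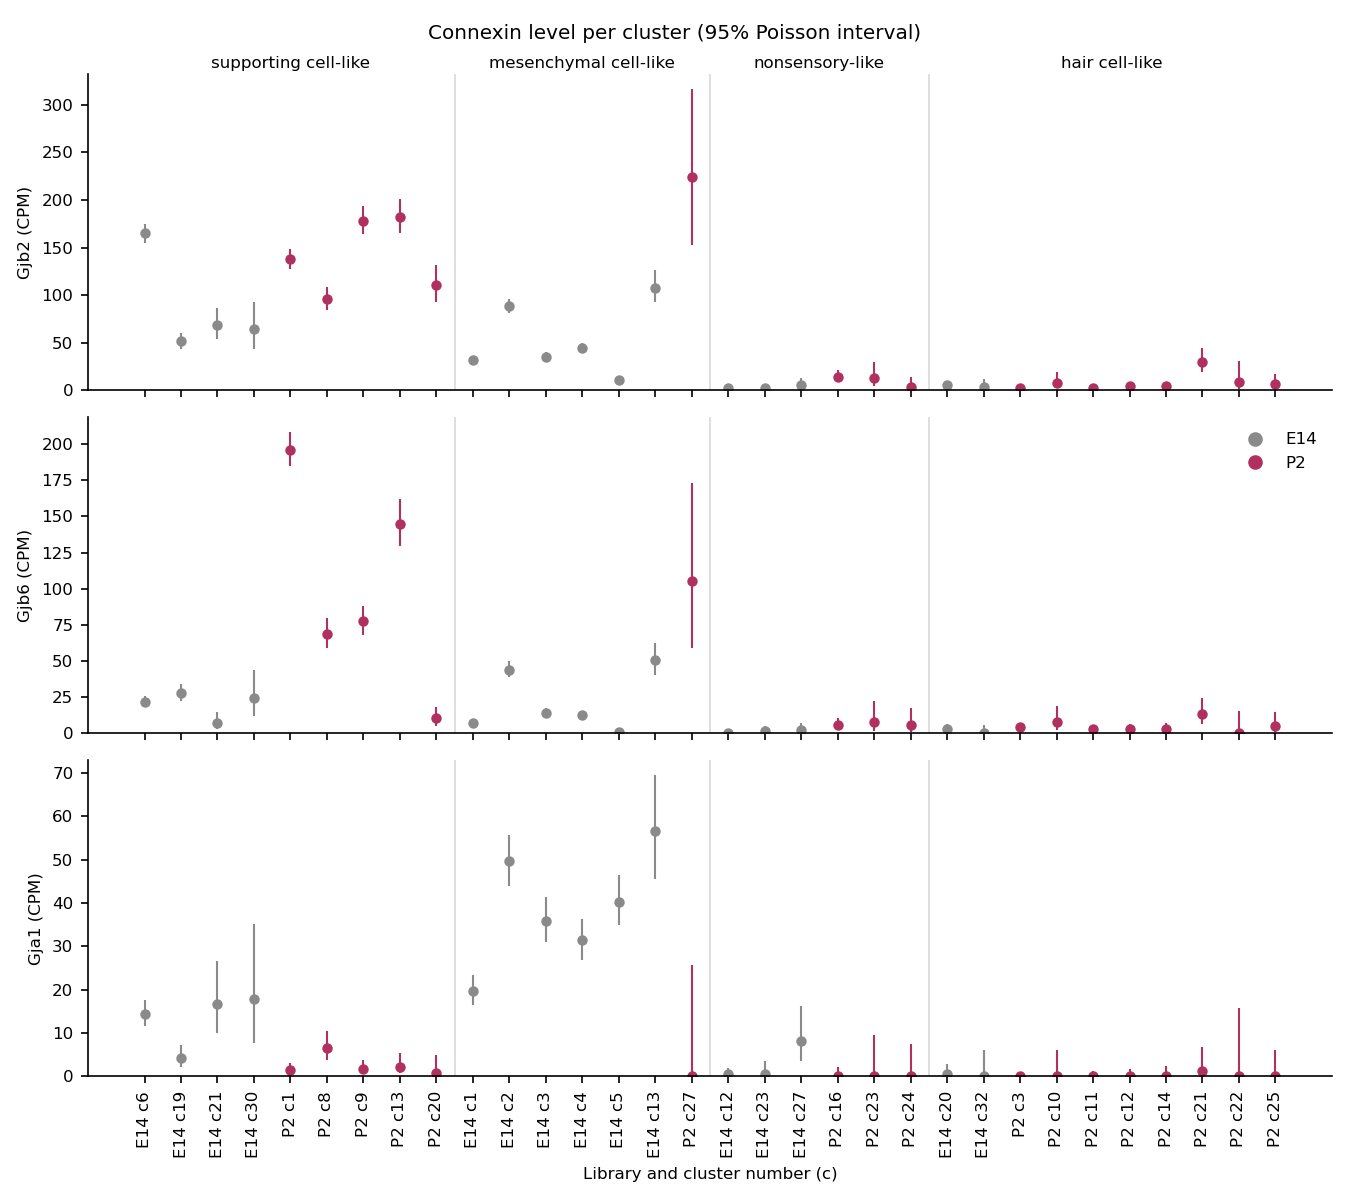
Level of Gjb2, Gjb6 and Gja1 (CPM, linear axes from 0) in each supporting cell-, mesenchymal cell-, nonsensory epithelial- and hair cell-like cluster, with exact 95% Poisson intervals, at E14 (grey) and P2 (red). Gjb6 reaches 196 CPM in P2 cluster 1 and stays at 10.5 CPM in P2 cluster 20, and Gja1 is highest in E14 mesenchymal cell-like clusters, at 19.6 to 56.6 CPM.

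**Figure D3:**
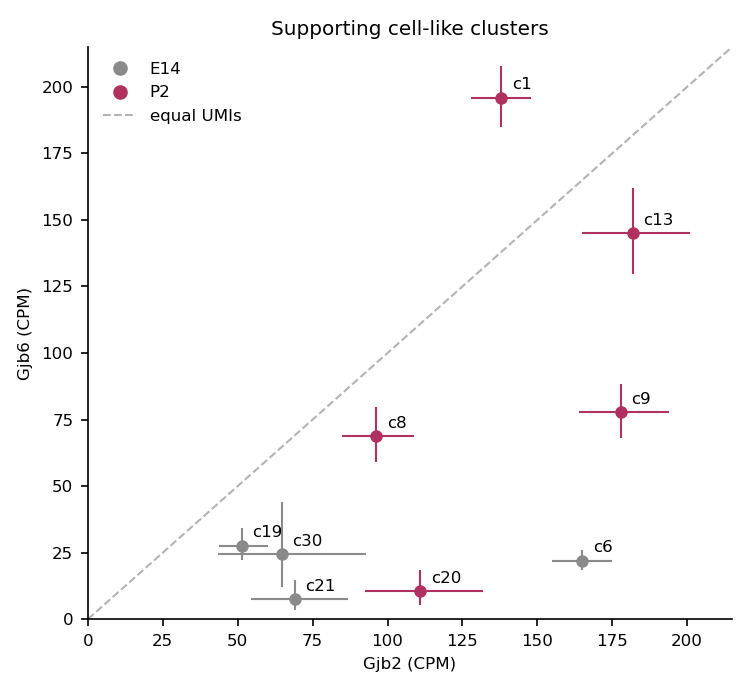
Gjb6 against Gjb2 (CPM) in the 4 E14 (grey) and 5 P2 (red) supporting cell-like clusters, with exact 95% Poisson intervals and a dashed line of equal UMIs. The E14 clusters lie at or below 27.6 CPM of Gjb6, and P2 cluster 1 alone lies above the line.

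Supporting cell-like cells were also split by detection of single region genes, after each cell was thinned to 4000 UMIs, and some of these splits followed the clusters. At E14, Gjb2 stood at 54.7 CPM (39.8 to 73.5) in the 201 cells with a Zpld1 UMI and at 164 CPM (145 to 184) in the 423 without. Gjb2 was 156 CPM (138 to 175) in cells with an Otol1 UMI and 66.1 CPM (49.1 to 87.2) in those without. Detection of Tectb, the other leading gene of cluster 6, did not go with higher Gjb2, at 115 CPM (84.6 to 153) with a Tectb UMI and 131 CPM (116 to 148) without. Gjb2 was 204 CPM (164 to 249.6) in cells with a UMI of Otop1, a proton channel needed for otoconia, and 112 CPM (98.0 to 128) in those without. Gja1 showed another pattern at E14, with 52.1 CPM (25.0 to 95.8) in the 48 cells with an Il33 UMI against 15.6 CPM (10.9 to 21.6), and with 6.29 CPM (1.71 to 16.1) in the 159 cells with a UMI of the growth factor gene Fgf3 against 22.6 CPM (16.3 to 30.5). At P2, Gjb6 stood at 163 CPM (136 to 195) in the 190 cells with an Fgf3 UMI and at 115 CPM (101 to 129) in those without. It was 72.9 CPM (45.1 to 111) in cells with a UMI of Cyp26b1, the retinoic acid-degrading enzyme of the striola, the central stripe of the utricle, and 132 CPM (119 to 147) in those without. It was 34.3 CPM (13.8 to 70.7) in the 51 cells with a UMI of the growth factor gene Bmp3 and 133 CPM (120.4 to 148) in those without.

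Genes that went most strongly with detection of a member were then ranked in the thinned supporting cell-like cells. This in part describes the clusters again and is no test. At P2 the cells without Gjb6 had more UMIs of 1500015O10Rik (ratio of cells with to cells without Gjb6 0.193, 0.173 to 0.215) and Tectb (0.273, 0.251 to 0.297), which lead clusters 20 and 8. The cells with Gjb6 had more of the transcription factor genes Sp5 (2.08, 1.55 to 2.80) and Egr3 (1.89, 1.29 to 2.79). For Gjb2 at P2 the ratios ran from 0.514 (Ubfd1) to 1.67 (Mmp15) among the 4365 genes ranked. At E14 the cells with Gjb2 had more Mfsd2a (2.46, 1.70 to 3.57), a lipid transporter, and fewer UMIs of Rprm (0.267, 0.184 to 0.378). The E14 cells with Gjb6 had more Cryab (2.55, 2.27 to 2.87), a small heat shock protein, and less Msx1 (0.162, 0.0438 to 0.420). The Msx1 value rests on 4 UMIs in cells with Gjb6 and does not follow the clusters. Msx1 is a leading gene of cluster 19, which held Gjb6 at 27.6 CPM. Igfbpl1, another leading gene of that cluster, was higher in cells with Gjb6 (2.60, 1.60 to 4.07). The E14 cells with Gja1 had more Il33 (4.85, 3.17 to 7.25) and the mitotic gene Cenpf (3.07, 2.18 to 4.24), and none of the 119 Igfbpl1 UMIs. At P2 only 6 thinned cells held a Gja1 UMI, too few to rank genes.

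Detection in single cells gave the same order as the levels. At 4000 UMIs per cell, with 624 of the E14 and 757 of the P2 supporting cell-like cells deep enough, Gjb2 was found in 33.8% (30.1 to 37.7) of cells at E14 and 42.3% (38.7 to 45.9) at P2. Gjb6 was found in 9.29% (7.13 to 11.9) and 37.0% (33.5 to 40.5), and Gja1 in 6.25% (4.48 to 8.45) and 0.793% (0.291 to 1.72). In thinned hair cell-like cells Gjb2 and Gjb6 were each found in 1.69% of 177 cells at E14, and in 1.58% and 1.94% of 825 cells at P2. Gja1 was found in 0 of the 825, which allows a share of cells with a UMI at this depth of up to 0.364% (3 divided by the number of cells). Without thinning, Gjb2 was found in 52.3% of E14 and 78.3% of P2 supporting cell-like cells, Gjb6 in 19.2% and 66.3%, and Gja1 in 12.1% and 4.36%, at medians of 8488 and 11348 UMIs, and in hair cell-like cells Gjb2 was found in 4.59% and 6.22% at medians of 14244 and 15224 UMIs.

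Gjb2 and Gjb6 were co-detected in a larger share of cells at P2, where each was also found more often. At P2 136 of 757 thinned cells held both, 18.0% (15.3 to 20.9), against 15.6% if detection of each were independent, and at E14 27 of 624 did, 4.33% (2.87 to 6.23), against 3.14%. Gjb6 was found in 42.5% (37.0 to 48.1) of the P2 cells with Gjb2 and in 33.0% (28.6 to 37.6) of those without. Within the largest P2 cluster, cluster 1, co-detection was 24.6% against a product of 24.1%, in cluster 9 it was 18.6% (12.8 to 25.6) against 11.6%, and in cluster 13 it was 18.5% (12.1 to 26.5) against 20.4%. In cluster 8 it was 9.35% (5.07 to 15.5) against 7.05%, and in cluster 20 a single cell held both. Gjb6 and Gja1 were found together in 1 of 624 supporting cell-like cells at E14, where the product of their shares was 0.581%. Cells with all 3 members numbered 0 at E14 and 2 at P2, and none of the 3 was found in 57.1% of E14 and 38.4% of P2 cells. These shares depend on depth, since co-detection of Gjb2 and Gjb6 at P2 was 7.39% at 2000 UMIs per cell and 37.2% at 8000.

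**Figure D4:**
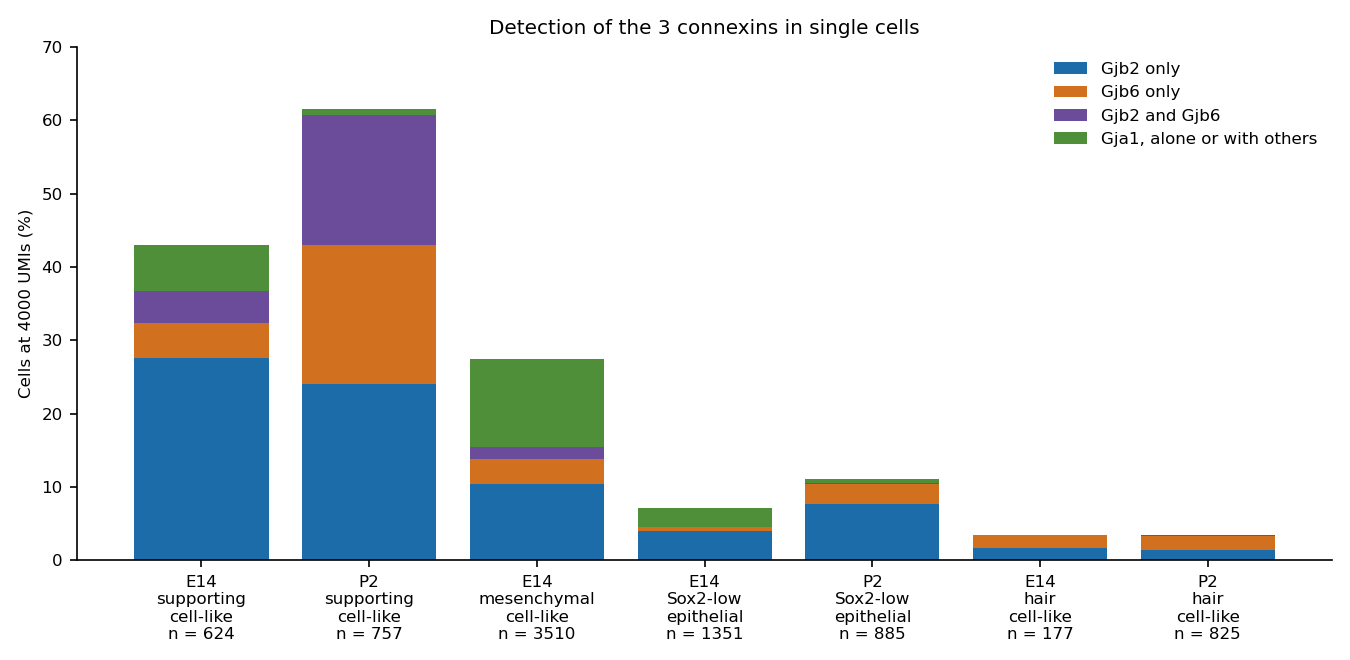
Share of cells (%) thinned to 4000 UMIs in which Gjb2 alone, Gjb6 alone, both without Gja1, or Gja1 with or without the others was found, by class and age, with the number of cells (n) under each bar. Cells with none of the 3 fill the rest to 100%. At P2 24.0% of supporting cell-like cells held Gjb2 alone, 19.0% Gjb6 alone and 17.7% both without Gja1, against 27.6%, 4.81% and 4.33% at E14.

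In the epithelium outside the sensory patches the 3 connexins were low. Nonsensory epithelial-like cells numbered 513 at E14 and 173 at P2. Of the markers for this class Kcne1 stood at 124 and 173 CPM in them, while Slc26a4 stood at 2.35 and 18.8 CPM, below its level in supporting cell-like cells, and the E14 cluster led by Slc26a4 was not given this name. Gjb2 stood at 3.05 CPM (1.91 to 4.61) in the E14 cells and at 12.3 CPM (8.39 to 17.3) in the P2 cells. Gjb6 stood at 0.692 CPM (0.225 to 1.62) and 6.13 CPM (3.51 to 9.96), and Gja1 at 1.66 CPM (0.859 to 2.90) and 0 (0 to 1.41). At E14 these levels of Gjb2 and Gjb6 were not above those of hair cell-like cells, and they were 39.3-fold (25.9 to 63.0) and 32.1-fold (13.6 to 99.8) below those of supporting cell-like cells. In the P2 cells Gjb6 stood at 4.83% and Gjb2 at 8.56% of their supporting cell level. Tectb stood at 2.53% of its own, Sox2 at 3.17%, Otol1 at 38.2% and Epcam at 87.5%. The part of supporting cell RNA in these counts was not tested. The class rests on few cells and its age difference for Gjb2 ran from 0.04 to 3.18 on the log2 scale over the alternatives, so it is given as values only.

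A wider set was therefore formed after the data were seen, of all epithelial clusters (Epcam at 1000 CPM or more) with Sox2, the transcription factor of the sensory patches, under 100 CPM. It held 1464 cells at E14 and 906 at P2. In it Gjb2 went from 11.5 CPM (10.1 to 13.0) in the E14 cells to 22.2 CPM (19.8 to 24.8) in the P2 cells, a ratio of 1.94 (1.63 to 2.30). Gjb6 stood at 1.66 CPM (1.15 to 2.32) and 5.62 CPM (4.46 to 6.99), a ratio of 3.39 (2.24 to 5.21), and Gja1 at 5.37 CPM (4.41 to 6.47) and 1.11 CPM (0.635 to 1.80), a ratio of 0.207 (0.114 to 0.351). Gjb6 and Gja1 thus had the same direction here as in supporting cell-like cells, where the small difference of Gjb2 depended on which clusters were counted. The levels of Gjb2 and Gjb6 were lower here. Within the set the highest Gjb2 at E14 was in a cluster led by Slc26a4, the gene of the anion exchanger pendrin, at 25.6 CPM (21.3 to 30.5). At P2 it was in cluster 5, led by Dhx58 and Itgbl1, at 48.1 CPM (40.8 to 56.4). P2 cluster 18 (71 cells, median of 2809 UMIs) was too shallow for the set and held Gjb2 at 54.3 CPM (28.1 to 94.9). The Slc26a4-led cluster also held Gja1 at 12.2 CPM (9.30 to 15.7) but Gjb6 at only 0.813 CPM (0.221 to 2.08).

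Mesenchymal cells of E14 expressed all 3 members. In 3929 mesenchymal cell-like cells Gjb2 stood at 46.4 CPM (44.0 to 48.9), Gjb6 at 17.9 CPM (16.4 to 19.4) and Gja1 at 35.8 CPM (33.7 to 38.0). Gjb6 was thus near its level in supporting cell-like cells, which was 1.25 times as high (1.07 to 1.45), whereas Gjb2 was 2.58 times as high (2.39 to 2.79) in supporting cell-like cells and Gja1 was 3.00 times as high in mesenchyme. Epcam, Otol1 and Sox2 in the mesenchymal cell-like cells stood at 0.633%, 0.316% and 0.268% of their supporting cell level, against 38.7% for Gjb2 and 80.3% for Gjb6.

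Levels also differed among the mesenchymal cell-like clusters, from 11.2 to 108 CPM for Gjb2 and from 1.04 to 50.4 CPM for Gjb6. Cluster 13, led by Aspn, Mgp and Col12a1, held Gjb2 at 108 CPM (92.9 to 126), Gjb6 at 50.4 CPM (40.1 to 62.6) and Gja1 at 56.6 CPM (45.6 to 69.4). Cluster 2, led by Car3 and Ogn, came next, at 88.4, 44.1 and 49.6 CPM, and cluster 1, led by Chst1 and Crym, stood at 31.7, 7.38 and 19.6 CPM. The intervals of clusters 13 and 2 overlap for Gjb6 and Gja1 and also for Gjb2. In cluster 5, led by histone genes and Top2a, Gjb2 was at 11.2 CPM (8.43 to 14.6) and Gjb6 at 1.04 CPM (0.337 to 2.42), but Gja1 at 40.3 CPM (34.8 to 46.4). An unnamed cluster of 203 cells led by mitotic genes such as Cenpa held the highest Gja1 of any cluster, 80.4 CPM (68.5 to 93.8), with Gjb2 at 10.9 CPM and Gjb6 at 0.496 CPM. Across thinned mesenchymal cell-like cells, Gjb2 was 0.670 times (0.550 to 0.810) and Gjb6 0.671 times (0.481 to 0.920) as high in cells with a cell cycle UMI as in the rest, and Gja1 1.12 times (0.913 to 1.38). In the same cells Gjb2 and Gjb6 were found together in 71 of 3510, 2.02% (1.58 to 2.54), which was 2.38 times the product of their shares. Within clusters this ratio was 4.31 in cluster 1 (10 cells with both), 2.35 in cluster 3 (10 cells) and 1.58 in cluster 2 (38 cells). It was 1.34 in cluster 4 (6 cells) and 1.23 in cluster 13 (7 cells), and cluster 5 had no such cell. The interval of the share with both included the product in clusters 4 and 13 and lay above it in clusters 1, 2 and 3. Gjb2 and Gja1 were together in 1.82% against 1.67%.

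At P2 only 32 cells were mesenchymal cell-like, in 1 cluster with a median of 1948 UMIs. They held 32 Gjb2 UMIs in 10 cells, or 224 CPM (153 to 316), 15 Gjb6 UMIs in 11 cells, or 105 CPM (58.8 to 173), and 0 Gja1 UMIs (0 to 25.8 CPM). In these cells 17 of the Gjb2 UMIs lay in 1 cell, without which Gjb2 stood at 115 CPM (64.5 to 190.2) and Gjb6 at 99.9 CPM (53.2 to 171). Otol1, Epcam and Tectb stood at 15.0%, 12.5% and 4.84% of their supporting cell level in this cluster, and the part of supporting cell RNA in its connexin counts was not tested. Its Gja1 level is below that of the E14 mesenchyme, while its Gjb2 and Gjb6 levels are above it, with 1 small cluster behind each value.

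Outside the 3 classes the members parted. Melanocyte-like cells of E14 (46 cells) had the highest Gjb2 of any named E14 class, 239.7 CPM (195 to 292) in 73.9% (58.9 to 85.7) of cells, with Gjb6 at 34.2 CPM (18.7 to 57.5) and Gja1 at 9.78 CPM (2.67 to 25.0). Sox2 and Tectb had 0 UMIs in these cells, Epcam stood at 0.110% of its supporting cell level and Col1a2 at 4.75% of its mesenchymal level. In endothelial-like cells Gja1 was at 47.9 CPM (34.7 to 64.6), and in glial-like cells at 31.6 CPM (25.3 to 39.1), both with intervals that overlap that of mesenchyme. Gjb2 and Gjb6 had 0 UMIs each in endothelial-like cells (0 to 4.11 CPM), and Gjb2 had 2 and Gjb6 0 UMIs in 396 glial-like cells. Immune-like cells had 2 Gjb2, 1 Gjb6 and 11 Gja1 UMIs. Pericyte-like cells had 0 UMIs of all 3, where 191829 UMIs were read (0 to 19.2 CPM).

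Over the 52 clusters of both libraries with at least 50 cells, the pattern of Gjb2 was most like that of Gjb6 among 8211 genes, with a Pearson correlation of log2 levels of 0.844. The value was 0.861 over the 29 clusters of E14 and 0.864 over the 23 of P2. After Gjb6 came Igfbp5 (0.778), Dkk3 (0.753), Tgfb2 (0.748) and Ackr4 (0.743) for Gjb2, and Ackr4 (0.839), Dkk3 (0.770), Trnt1 (0.761) and Tgfb2 (0.742) followed Gjb2 for Gjb6. Gja1 was most like genes of the extracellular matrix, namely Nid2 (0.836), Col1a2 (0.818), Col5a2 (0.812) and Emilin1 (0.804), and like Otor (0.808). Its correlation over both libraries was 0.182 with Gjb2 and 0.00757 with Gjb6. Within E14 it was 0.345 with Gjb2 and 0.315 with Gjb6, and within P2 0.732 and 0.620, so the values within a library were higher than the pooled ones. The P2 values rest on 62 Gja1 UMIs in all kept cells. No P2 cluster held Gja1 above 6.50 CPM, near the 5 CPM added to each level before the logarithm. Clusters of a library share its depth and free RNA and are not independent, so these values are descriptions.

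Of the 20 connexin genes, 5 reached 10 UMIs at one of the ages in supporting cell-like cells, and these were the 3 members, Gjb1 and Gjc1. Among them 2 were at least 2-fold higher and 1 at least 2-fold lower at P2, where 11.8% of all 14046 genes measured were that much higher and 10.4% that much lower. Gjb1, a connexin of myelinating cells and liver, went from 1.72 CPM (1.03 to 2.68) in the E14 cells to 3.88 CPM (2.94 to 5.02) in the P2 cells. Gjc1, a connexin of vessels and the heart's conduction tissue, was at 33.1 CPM (29.8 to 36.7) and 22.8 CPM (20.5 to 25.4), so that at E14 it was above Gjb6 in these cells. Other connexins marked other cells. Gjc3 reached 115 CPM (102 to 128) in glial-like cells, Gja4 78.0 CPM (60.8 to 98.6) in endothelial-like cells and Gjc1 370.1 CPM (289 to 467) in pericyte-like cells of E14.

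Pannexins form large-pore channels but no gap junctions. Panx1 was highest in hair cell-like cells, with 56.2 CPM (47.4 to 66.2) in the E14 and 49.5 CPM (45.8 to 53.5) in the P2 library. Supporting cell-like cells had 14.6 CPM (12.5 to 17.1) of it in the former and 11.3 CPM (9.64 to 13.1) in the latter, the reverse of Gjb2 and Gjb6. Panx2 stood at 3.35 and 3.47 CPM in supporting cell-like cells.

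Over all 14046 genes measured in supporting cell-like cells, 11.8% were at least 2-fold higher at P2 and 10.4% at least 2-fold lower. The lists below were chosen with earlier results of these data known, so their counts and medians beside these shares are descriptions and no test. Of 8 measured genes for partners of junctions, none was 2-fold higher at P2. Among the 8, 1 (Dbn1, of the actin-binding protein drebrin) was 2-fold lower, at 97.3 CPM at E14 and 46.1 CPM at P2. Tjp1, which encodes the scaffold ZO-1 that binds the tail of Cx43, was at 48.0 CPM (44.0 to 52.3) and 64.5 CPM (60.4 to 68.7). Cdh2 (N-cadherin) was at 214 and 108 CPM, a ratio of 0.505 (0.473 to 0.538), and Cdh1 (E-cadherin) at 17.0 and 17.4 CPM. Of 12 genes for the cycling of potassium, 7 were at least 2-fold higher and none 2-fold lower at P2, with a median log2 ratio of 1.35 against 0.05 over all genes measured. The 7 include Slc26a4, the gene of an anion exchanger and not of a potassium carrier, at 5.70 CPM (4.38 to 7.29) and 54.3 CPM (50.6 to 58.2). Kcnj16 was at 2.08 CPM (1.32 to 3.12) and 13.3 CPM (11.5 to 15.3). Atp1b1, a beta subunit of the sodium pump, was at 32.7 CPM (29.4 to 36.3) and 175 CPM (168 to 182). Kcnj10, the inward rectifier that partners Kcnj16, had a ratio of 2.56 (2.10 to 3.13), Kcnq1 of 4.32 (3.01 to 6.38), Atp1b2 of 2.56 (2.13 to 3.08) and Kcne1, on 3 and 11 UMIs, of 2.76 (0.729 to 15.4). In the Sox2-low epithelial clusters 4 of the 12 (Atp1b1, Kcnj16, Slc26a4 and Kcnj10) were at least 2-fold higher at P2. Another 4 (Kcne1, Atp1b2, Slc12a2 and Slc12a7) were at least 2-fold lower there. The shares over all 14801 genes measured were 12.0% and 12.1%. The Kcne1-led P2 cluster 23 was too shallow for this set. For nonsensory epithelial-like cells, which include it, ratios of P2 over E14 were 1.39 (Kcne1), 1.70 (Slc12a2), 0.723 (Atp1b2) and 0.411 (Slc12a7). Slc26a4, Kcne1 and Kcnq1 were also among the markers that named nonsensory epithelial-like clusters. The ratio of Gjb6 (5.71) lay between those of Atp1b1 (5.34) and Kcnj16 (6.41).

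**Figure D5:**
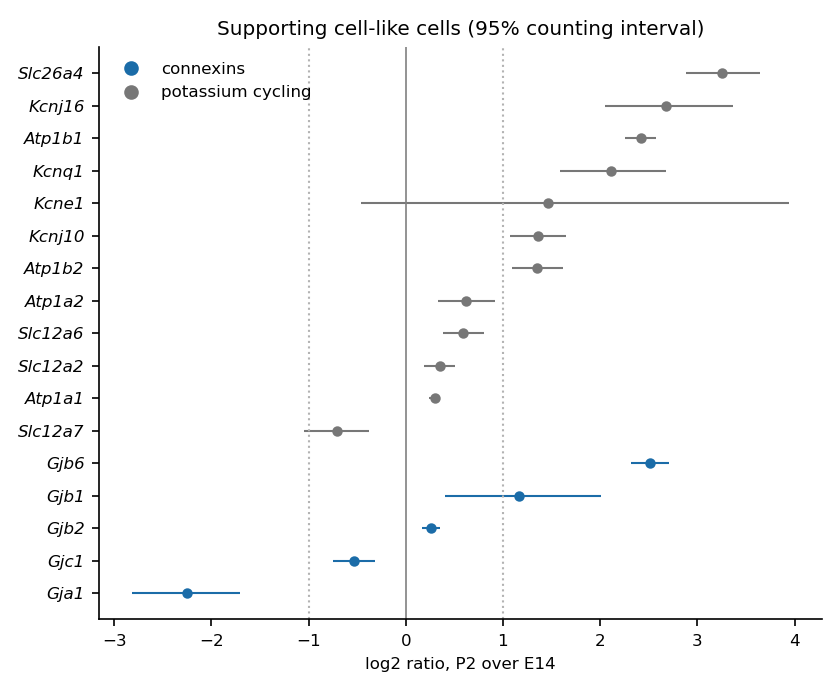
Log2 ratio of P2 over E14 levels in supporting cell-like cells for the connexins (blue) and the genes for potassium cycling (grey) with at least 10 UMIs at one of the ages, with exact 95% counting intervals and dotted lines at a 2-fold difference. Gjb6 lies at 2.51, Gjb2 at 0.26 and Gja1 at -2.25. Past the upper line lie 7 of the 12 genes of the potassium list, which includes the anion exchanger gene Slc26a4, against 11.8% of all 14046 genes measured. The list was chosen with earlier results of these data known, so this is a description and no test.

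Other lists showed what else differed between the supporting cell-like cells of the libraries. All 8 cell cycle genes were at least 2-fold lower at P2, for example Top2a at 77.3 CPM at E14 and 2.79 CPM at P2. Gja1 in E14 supporting cell-like cells was 1.55 times (0.807 to 2.90) as high in cells with a cell cycle UMI as in the rest, an interval that includes 1. The counts that follow stand beside the shares of all genes given above, 11.8% higher and 10.4% lower. Of 8 genes for glia-like support, 2 (S100b and Sparcl1) were 2-fold higher and 1 (Vim) 2-fold lower. Of 8 genes of dissociation stress 1 (Atf3) was 2-fold lower, and Fos was at 2786 and 3132 CPM. Of 11 region genes 3 were 2-fold higher and 3 lower. Zpld1 stood at 1391 CPM at E14 and 2.65 CPM at P2. Otol1 and Tectb, 2 of those that were higher, were themselves markers that named the class.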

How the data were processed

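Raw UMI counts per gene and barcode were deposited by the authors as 1 matrix per age, and the submitters' processing notes name Cell Ranger 3.1.0 and Seurat 4.1.1. The sources name more than 1 genome build, so positions come from the reference annotation only. Barcodes under 500 genes, under 1000 UMIs or over 15% mitochondrial were dropped. Of the barcodes that passed, the 12.5% at E14 and 5.00% at P2 most like simulated doublets were removed. These shares were set in advance, at 0.8% per 1000 deposited barcodes. Each library was clustered on 2000 variable genes, without the listed genes, by 30 principal components, 15 neighbours and Leiden communities at resolution 1 (leidenalg 0.10.2, scikit-learn 1.9.0). A cluster was named from at least 3 markers. UMIs were summed per class, with exact Poisson, binomial and conditional binomial intervals (scipy 1.17.1). Scripts were tested on simulated data. Genes were named as the 3 members, the genes of 8 lists, the 5 most alike genes and the 5 genes each way that went with detection of a member. Members and lists were chosen with earlier results of these data known. Cell filter, doublets, resolution, listed genes, a per-cell marker gate, scaling, averaging, thinning and crista-type clusters were varied. Results for some connexin genes are not reported here.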

Additional observations from a re-analysis of the deposited data

How the results depend on the processing

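Over 11 alternatives the log2 ratio of P2 over E14 in supporting cell-like cells ran from 2.21 to 2.79 for Gjb6 and from -3.18 to -2.08 for Gja1, and each kept its direction. That of Gjb2 (0.26) ran from -0.03 to 0.39. A marker gate per cell gave 0.03 for Gjb2, 2.21 for Gjb6 and 10.8% for co-detection of Gjb2 and Gjb6 at P2 (18.0%). Keeping doublets gave 0.39 for Gjb2. A rule meant to find crista-type clusters, more of Zpld1, Msx1 and Lmo4 than of Otol1, Otop1 and Tectb above the class level, took out the Zpld1-led cluster at E14 and the Tectb-led cluster 8 at P2, where Zpld1 was only 4.59 CPM against 4669 CPM in the former, so the name is not borne out at P2. Without both the values were 0.06 for Gjb2, 2.79 for Gjb6 and -3.18 for Gja1. Leaving out the E14 cluster alone, chosen after seeing the data, turned Gjb2 to -0.03. The clusters left out differ in their levels as given for each cluster, and for the gate and the doublets the cause was not tested. Co-detection was 7.39% at 2000 UMIs per cell and 37.2% at 8000. The wider epithelial set, leaving out clusters under a median of 4000 UMIs and leaving out 1 P2 mesenchymal cell-like cell were also chosen after seeing the data. No paired analysis was possible because each age has 1 library, and no library could be left out.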
